A study of Mus musculus with 62 samples.

Results

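Translation factors and aminoacyl-tRNA synthetases were followed in mouse hearts that lack the ribosomal protein RPL3L and in C2C12 cells made to express RPL3L or RPL3. Members were taken by gene symbol from the transcripts of the count table. They are the initiation and elongation factors whose symbols begin with Eif or Eef and a digit, the release and rescue factors Etf1, Gspt1, Gspt2, Abce1, Pelo, Hbs1l and Zfp598, and the tRNA synthetases of the cytosol and of mitochondria. Of the 10476 gene symbols in the table, 58 were members. The gene annotation of the same build holds 110 protein-coding symbols of this kind. The table lists plus-strand transcripts only, and the other 52 symbols lie on the minus strand and were not analysed here. Among these are Eef1a1, Eef1a2, Eif5a, Eif4a1, Etf1, Gspt1, Pelo and Abce1. The 58 members comprise 25 initiation factors, 3 kinases of eIF2, 3 proteins that bind eIF4E, 6 elongation factors or their regulators, 3 termination and rescue factors, 7 cytosolic synthetases and 11 mitochondrial synthetases.

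Initiation factors bring the initiator tRNA and the small ribosomal subunit to the start codon. The eIF4 group recognises the cap and unwinds the leader of the mRNA, eIF1, eIF1A, eIF2, eIF3 and eIF5 scan for the start codon, and eIF5B joins the large subunit. Kinases that phosphorylate eIF2 lower initiation under stress, and eIF4E-binding proteins lower cap-dependent initiation when mTORC1 is inactive. In elongation, eEF1A with its exchange factors (eEF1B2, eEF1G) delivers aminoacyl-tRNA to the A site, eEF2 moves the ribosome along the mRNA, and eEF2 kinase inhibits eEF2. Synthetases charge tRNAs with their amino acids, with a separate nuclear-encoded set for mitochondria, whose ribosomes make subunits of the respiratory chain on which heart muscle depends. HBS1L works with PELO to split stalled ribosomes, and ZFP598 ubiquitinates collided ribosomes. In striated muscle, some ribosomes carry RPL3L in the place that RPL3 takes in the large subunit of other cells, near the A site.

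RNA-seq and Ribo-seq, which sequences the mRNA fragments that ribosomes protect, were available for 4 Rpl3l+/+ and 4 Rpl3l-/- hearts. The mice were male, 10 weeks old and of the C57BL/6J background, and the Rpl3l-/- allele was made by genome editing in zygotes. C2C12 is a mouse myoblast line, and 3 cultures each were infected with a retrovirus for mouse RPL3 (RPL3 OE), with one for mouse RPL3L (RPL3L OE) or with the empty vector (control) and selected as pools. The line derives from a female mouse, and its Ribo-seq was done on proliferating cells, according to the study. The study describes the cultures of a group as biologically independent samples.

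Total counts ranged from 3594696 to 22425296 in the heart RNA-seq libraries and from 1606700 to 3192090 in the heart Ribo-seq libraries. In C2C12 cells they ranged from 7647102 to 29746110 and from 3167026 to 6093268. Depth differed between groups. Heart RNA-seq totals were 3594696 to 14041366 in Rpl3l+/+ and 10930435 to 22425296 in Rpl3l-/-. C2C12 RNA-seq totals were 14324795 to 29746110 in control, 7647102 to 11669868 in RPL3 OE and 8091836 to 9715596 in RPL3L OE. In C2C12 Ribo-seq they were 3167026 to 4228211, 3528147 to 5974289 and 4957113 to 6093268. Levels are given as counts per 1000000 counts of 1 transcript per gene (CPM), scaled by TMM within an assay and a comparison. Rpl3l itself was present at 924 to 1342 CPM in the RNA of Rpl3l+/+ hearts and at 59.9 to 98.8 CPM in Rpl3l-/- hearts, and its Ribo-seq level was 586 to 625 and 13.1 to 30.1 CPM. In C2C12 RNA it was 4471 to 4603 CPM in RPL3L OE and at most 1.85 CPM in the other 6 cultures. Its C2C12 Ribo-seq level was 2548 to 2710 CPM in RPL3L OE and 8.51 to 16.8 CPM in the other 6 cultures. The source of those low Ribo-seq values was not tested. The heart libraries carried the labelled tissue's markers: 7 heart muscle genes with a line (Myl2, Myl3, Tnnt2, Pln, Mybpc3, Nppa, Casq2) summed to 102471 to 136043 CPM in RNA of the 8 hearts and to 501 to 515 CPM in control C2C12 cells. Hearts also carried variable RNA of other tissues. The sum of 2 airway genes (Scgb3a2, Sftpa1) in RNA was 0, 111, 2.21 and 30.5 CPM in Rpl3l+/+ hearts 1 to 4 and 293, 0, 376 and 0 CPM in Rpl3l-/- hearts. In Ribo-seq it was 1.35, 124, 0.941 and 32.9 CPM and 251, 307, 0 and 0 CPM. For Rpl3l-/- replicates 2 and 3 the RNA-seq and Ribo-seq libraries thus went against each other, and the sum of 4 fat genes did the same (144 and 2399 CPM in RNA, 3110 and 187 CPM in Ribo-seq). These numbers therefore cannot be taken to mark the same heart in both assays. The counts of members called in the heart, and the members and list genes on which the heart results turn, are also given without the 2 Rpl3l-/- libraries of each assay with the most airway RNA. That refit kept all Rpl3l+/+ libraries, among them replicate 2 with 111 CPM of airway genes in RNA and 124 CPM in Ribo-seq. With only 2 Rpl3l-/- libraries left in each assay it has less power, and what moved its p-values was not tested.

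The first question was whether translation factors changed with the loss of RPL3L. None of the 55 members tested in heart RNA passed an edgeR adjusted p of 0.05, where 0.0159% of all 6302 genes tested did. None reached an unadjusted p under 0.05 either, against 138 of all genes (2.19%). The members' log2 differences, Rpl3l-/- minus Rpl3l+/+, had a median of 0.02 and ran from -0.22 (Eif2ak1, the haem-regulated eIF2 kinase) to 0.31 (Eif2ak3, the eIF2 kinase of the endoplasmic reticulum, PERK). Without the libraries with the most airway RNA none passed and none reached an unadjusted p under 0.05, and the range was -0.19 to 0.22. In bulk tissue, fewer cells of a type and less RNA per cell cannot be told apart.

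The members with the smallest p in RNA were Hbs1l and Gars. Hbs1l RNA was 258, 299, 271 and 275 CPM in Rpl3l+/+ hearts and 209, 291, 240 and 236 CPM in Rpl3l-/- hearts, a log2 difference of -0.18 ± 0.12 (SE) at an edgeR adjusted p of 0.999. Gars, the glycyl-tRNA synthetase of both compartments, was at 239 to 262 CPM and 244 to 305 CPM, a difference of 0.15 ± 0.11 (edgeR adjusted p = 0.999). For both genes the genotypes overlapped, and with those libraries left out the differences were -0.07 ± 0.16 and 0.13 ± 0.16.

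Ribo-seq of the same genotypes gave wider differences, again with no member past the threshold. None of 55 members passed, against 0.13% of all 5380 genes. DESeq2 called 1 member, Eif1 (adjusted p = 0.0115). At an unadjusted p under 0.05 there were 13 members, 2 with a higher and 11 with a lower value in Rpl3l-/- hearts, where 16.7% of all genes tested reached that value and 8.72% were higher and 7.96% lower. Leaving out the 2 libraries with the most airway RNA left 3 members at that p, Eif1, Eif5b and Rars2, and no adjusted call.

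Eif1 (chr11:100319885-100322096, GRCm38), whose product keeps the scanning ribosome from starting at the wrong codon, had the smallest p of the members. Its Ribo-seq level was 408, 466, 638 and 468 CPM in Rpl3l+/+ hearts and 296, 289, 357 and 387 CPM in Rpl3l-/- hearts. The groups did not overlap, and every Rpl3l-/- heart lay below the lowest Rpl3l+/+ heart. The log2 difference was -0.58 ± 0.14 with an edgeR adjusted p of 0.0834. Without the libraries with the most airway RNA it was -0.41 with an adjusted p of 0.247. Its RNA was at 2096 to 2565 CPM and 2145 to 2824 CPM, a difference of 0.01. Eif1 and its near-identical relative Eif1b share reads where mapping is not unique, so their values are uncertain to that extent.

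Rars2, the mitochondrial arginyl-tRNA synthetase (chr4:34614957-34660167), was the other member with no overlap and an adjusted p under 0.1. Its Ribo-seq level was 85.1, 76.3, 92.3 and 85.8 CPM in Rpl3l+/+ hearts and 55.7, 56.2, 48.5 and 73.8 CPM in Rpl3l-/- hearts. The difference was -0.54 ± 0.14 (edgeR adjusted p = 0.0917), while its RNA differed by 0.10 and overlapped between the genotypes (46 to 79.6 and 50.5 to 80.9 CPM). The Ribo-seq difference without the libraries with the most airway RNA was -0.47 ± 0.18 (edgeR adjusted p = 0.25).

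Translational efficiency (TE) is the Ribo-seq level relative to the RNA level, and a difference in TE is the Ribo-seq difference beyond that of RNA, tested as the interaction of genotype and assay. None of 54 members passed in the heart, where the share of all 5272 genes called was 0%. At an unadjusted p under 0.05 there were 342 genes (6.49%), 3 of them members, and DESeq2 called no member. The 3 members were Eif1 (-0.59 ± 0.19, edgeR adjusted p = 0.654), Eif1ax (-0.47 ± 0.17, adjusted p = 0.679) and Rars2 (-0.64 ± 0.26, adjusted p = 0.724). Eif1ax encodes eIF1A, the partner of eIF1 on the scanning subunit. Its Ribo-seq level was 143, 136, 161 and 143 CPM in Rpl3l+/+ hearts and 92.1, 112, 138 and 111 CPM in Rpl3l-/- hearts, so 1 Rpl3l-/- heart fell within the Rpl3l+/+ range. Its RNA was 113 to 129 CPM and 116 to 141 CPM. TE differences without the libraries with the most airway RNA were -0.52 for Eif1, -0.42 for Eif1ax and -0.51 for Rars2, each at an edgeR adjusted p of 0.999.

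**Figure D1:**
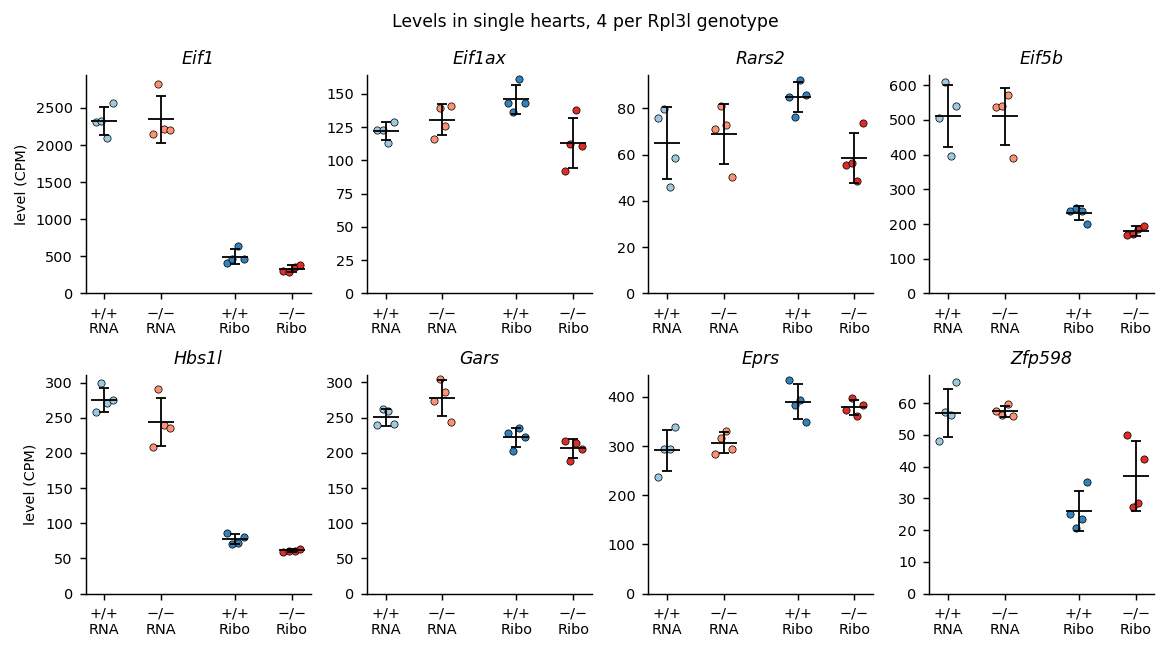
Levels of 8 members in single hearts (y axis, CPM, starting at 0) by Rpl3l genotype (+/+ and -/-) and assay (RNA or Ribo). Points are hearts, and horizontal marks with bars are the mean and SD of 4 hearts. For Eif1, Rars2, Eif5b and Hbs1l the Ribo-seq points of the genotypes do not overlap while the RNA points do. The share of all genes without overlap is not given.

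By role, 8 of the 24 initiation factors tested in heart Ribo-seq had a lower value in Rpl3l-/- hearts at an unadjusted p under 0.05, and none a higher one, where 7.96% of all genes were lower and 8.72% higher. The following were chosen after their values were seen. Eif5b, the GTPase that joins the subunits, was at 201 to 246 CPM in Rpl3l+/+ and 167 to 195 CPM in Rpl3l-/- hearts (-0.36 ± 0.10, edgeR adjusted p = 0.114). Its RNA, at 395 to 609 and 389 to 573 CPM, overlapped. Eif2s1 and Eif2s3y, subunits of eIF2, differed by -0.30 and -0.27, Eif3j1, a subunit of eIF3, by -0.29, Eif5, the GTPase activator of eIF2, by -0.33, and the helicase gene Eif4a2 by -0.31. Their edgeR adjusted p-values lay between 0.207 and 0.237. Without the libraries with the most airway RNA, Eif5b differed by -0.28 (adjusted p = 0.297) and the other 5 genes by -0.15 (Eif2s1) to -0.26 (Eif5 and Eif4a2). The initiation factors tested had a median Ribo-seq difference of -0.09 against 0.01 for all genes, and their median in RNA was 0.01.

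The cap-binding group was close to 0 in both assays. Eif4g1, the scaffold that joins cap and ribosome, was at 653 to 724 CPM in Rpl3l+/+ and 707 to 892 CPM in Rpl3l-/- Ribo-seq, a log2 difference of 0.13 ± 0.09 (edgeR adjusted p = 0.524). Its paralog Eif4g3 also differed by 0.13, the cap-binding protein genes Eif4e and Eif4e2 by -0.10 and -0.08, and the mTORC1-regulated inhibitor Eif4ebp1 by 0.07. Eif4ebp3 was tested in RNA only, where it differed by 0.07 ± 0.28. The kinases of eIF2 gave RNA and Ribo-seq differences of -0.22 and -0.19 (Eif2ak1), 0.31 and 0.30 (Eif2ak3) and 0.07 and -0.12 (Eif2ak4, the GCN2 kinase that senses uncharged tRNA and stalled ribosomes), with no edgeR adjusted p below 0.505.

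Among elongation factors, Eef2 RNA was 4151 to 6197 CPM in Rpl3l+/+ and 4988 to 5868 CPM in Rpl3l-/- hearts, a log2 difference of -0.00. Its Ribo-seq level was 3120, 1862, 1457 and 1467 CPM against 1735, 2914, 3144 and 1553 CPM, so each genotype held both high and low hearts and the difference of 0.24 ± 0.26 was within its error. Eef2k differed by 0.22 ± 0.12 and Eef1b2 by -0.26 ± 0.22 in Ribo-seq. Eef1akmt4, a lysine methyltransferase gene, stood at 11.7 to 24.5 CPM and 9.1 to 12.3 CPM (-0.63 ± 0.28, adjusted p = 0.282), on 8 to 27 counts in each library. Eif5a2 had at most 3 counts in every heart RNA-seq library and was not tested.

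The rescue factors gave values in opposite directions. Hbs1l Ribo-seq was 70 to 86.4 CPM in Rpl3l+/+ hearts and 59.1 to 64.2 CPM in Rpl3l-/- hearts with no overlap (-0.34 ± 0.12, edgeR adjusted p = 0.188). Zfp598 Ribo-seq was 25, 20.6, 23.5 and 35.2 CPM against 50, 27.2, 28.5 and 42.4 CPM, which overlapped (0.52 ± 0.24, adjusted p = 0.304), and its RNA differed by -0.00. Gspt2, the intronless relative of the release factor gene Gspt1, was at 4.1 to 19.6 CPM in Ribo-seq (-0.48 ± 0.33). Leaving out the libraries with the most airway RNA gave Ribo-seq differences of -0.31 for Hbs1l and 0.46 for Zfp598.

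Synthetases that serve proline and alanine codons were among those named whatever their values. Eprs, which charges glutamate and proline tRNAs, was at 349 to 435 CPM in Rpl3l+/+ and 362 to 397 CPM in Rpl3l-/- Ribo-seq (-0.04 ± 0.09). Aars, the cytosolic alanyl-tRNA synthetase, differed by -0.07 ± 0.10, and the mitochondrial prolyl-tRNA synthetase Pars2 by -0.20 ± 0.24. Aars2, which charges alanine tRNA in mitochondria, was at 76.3 to 90.4 CPM and 91.3 to 103 CPM, with no overlap (0.26 ± 0.11, edgeR adjusted p = 0.247). Vars, the cytosolic valyl-tRNA synthetase, was at 101 to 148 CPM and 128 to 187 CPM (0.36 ± 0.15, adjusted p = 0.248). These differences were 0.22 for Aars2 and 0.23 for Vars without the libraries with the most airway RNA. Taking the whole group, the 7 cytosolic synthetases had a median Ribo-seq difference of -0.04 and the 11 mitochondrial ones of -0.01.

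**Figure D2:**
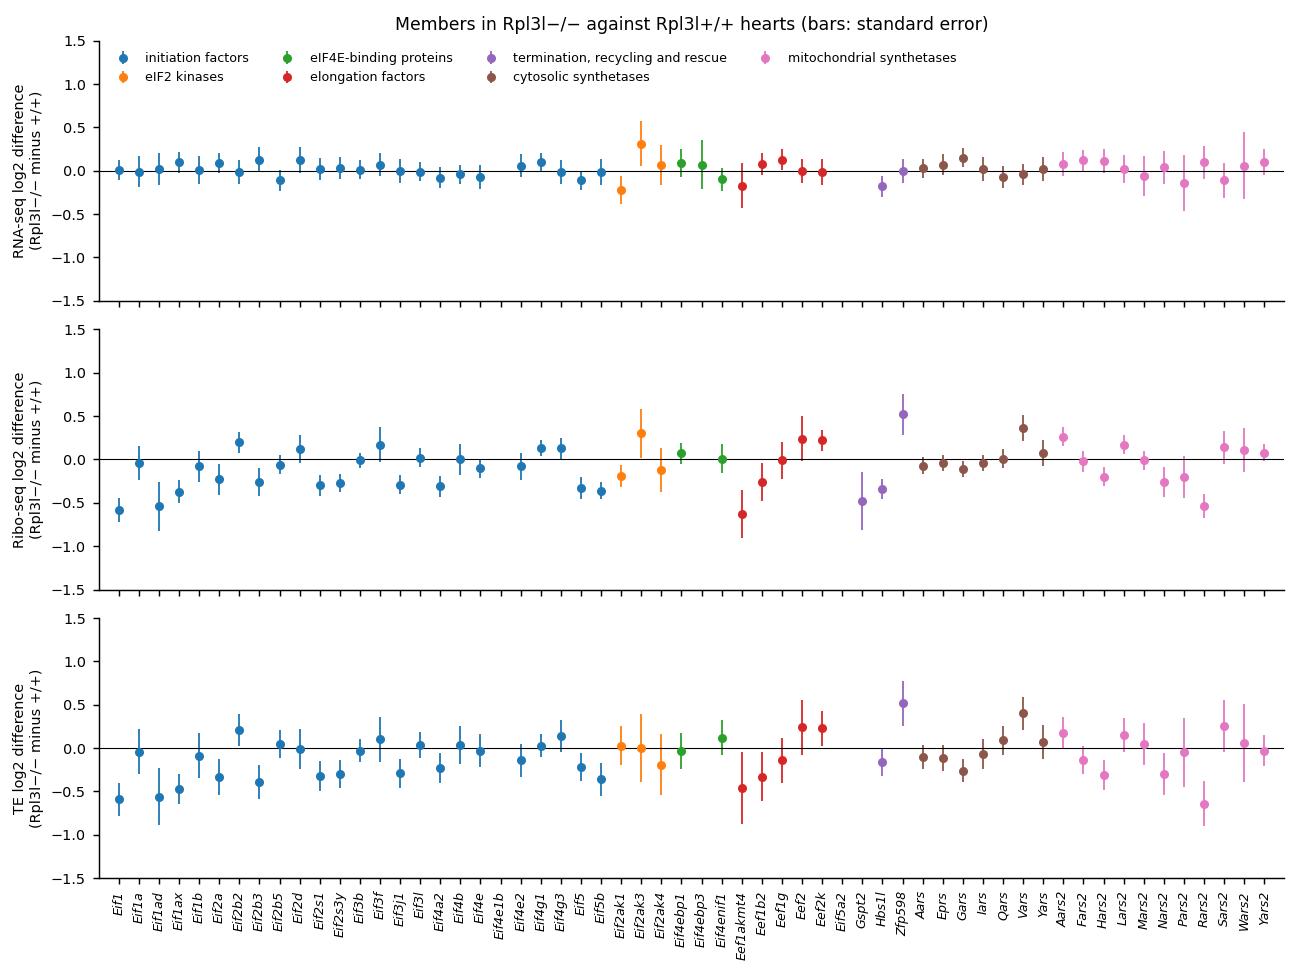
Log2 difference of each member, Rpl3l-/- minus Rpl3l+/+ hearts (y axis), in RNA-seq, Ribo-seq and TE (panels from top to bottom), ordered and coloured by role. Bars are the standard error. RNA differences lie between -0.22 and 0.31, and Ribo-seq differences spread from -0.63 to 0.52 with no member past the threshold.

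Genes around the translation factors were read from further lists. Integrated stress response targets are the genes that follow when eIF2 is phosphorylated. Only 5 of this longer list were tested in heart Ribo-seq, and the state of the pathway was not tested. Of these 5 genes 1 passed, where 0.13% of all genes did. This was Cebpb, which rose by 1.13 ± 0.12 (edgeR adjusted p = 0.000692), with an RNA difference of 0.62 ± 0.14 that did not pass (adjusted p = 0.912). Of 13 genes of mTORC1 and cap-binding control, Paip2, an inhibitor of poly(A)-binding protein, fell by 0.52 ± 0.09 in Ribo-seq (-0.52, adjusted p = 0.0489). Without the libraries with the most airway RNA, Cebpb still passed in Ribo-seq (1.05, adjusted p = 0.0129) and Paip2 did not (-0.51, adjusted p = 0.0871). No gene passed in Ribo-seq among the 13 stalling and rescue partners (3 at an unadjusted p under 0.05), the 9 mitochondrial translation factors (3), the 6 synthetase partners (1) or the 7 factors with TOP mRNAs (1), and none of any list passed in RNA or TE. In heart Ribo-seq, 16.7% of all genes tested reached that unadjusted p.

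In C2C12 cells the study compared each overexpression with the empty vector and with the other. The comparisons of RPL3L OE and of RPL3 OE with the control share the 3 control cultures, so their values are given side by side. In RNA, 3 of 56 members passed in RPL3L OE, all lower, where 9.85% of all 5728 genes passed (5.19% higher and 4.66% lower). In RPL3 OE 8 of 56 passed, 3 higher and 5 lower, where 17.5% of all genes did (9.1% higher and 8.43% lower). Between RPL3L OE and RPL3 OE 17 of 56 passed, 5 higher and 12 lower in RPL3L OE, where 27.7% of all genes did (13.5% higher and 14.2% lower). In Ribo-seq of RPL3L OE 8 of 56 passed, 6 higher and 2 lower, against 12.5% of all 5607 genes (5.64% higher and 6.85% lower). In RPL3 OE 5 of 56 passed, all higher, against 11.9% of all genes (5.28% higher and 6.62% lower). Between them 9 of 56 passed, 4 higher and 5 lower in RPL3L OE, against 19.4% of all genes (9.35% higher and 10% lower). The members' shares, from 5.36% to 30.4%, were thus near or below those of all genes in these 6 comparisons. In TE, 3 of 55 members passed in RPL3L OE, all higher, against 2.11% of all 5406 genes (0.925% higher). None passed in RPL3 OE, where 0.0925% of all genes did and 5 members reached an unadjusted p under 0.05 (all genes 8.31%). None passed between RPL3L OE and RPL3 OE either (all genes 0.277%, 4 members and 9.25% of all genes at an unadjusted p under 0.05), and DESeq2 called no member in these comparisons.

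All 5 members that rose in Ribo-seq of RPL3 OE, where 5.28% of all genes rose, were initiation factors. Of the 6 that rose in RPL3L OE, where 5.64% of all genes rose, 5 were initiation factors and the other was Qars. Initiation factors are the largest role, with 25 of the 58 members. Eif1a and Eif1ax both encode eIF1A, and reads that fit both are shared between them, so each is uncertain. Eif1a Ribo-seq was 87.5, 92 and 87.9 CPM in control, 131, 120 and 128 CPM in RPL3 OE and 127, 122 and 116 CPM in RPL3L OE. Every overexpressing culture lay above every control culture. It rose by 0.50 ± 0.08 in RPL3 OE (edgeR adjusted p = 5.15e-05) and by 0.45 ± 0.08 in RPL3L OE (adjusted p = 0.000259). In RNA it rose by 0.17 ± 0.05 in RPL3 OE (adjusted p = 0.00556) and differed by 0.04 in RPL3L OE. The RPL3 OE call in RNA was lost without RPL3 OE replicate 3.

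Eif1ax Ribo-seq was 263, 295 and 272 CPM in control, 302, 281 and 323 CPM in RPL3 OE and 329, 352 and 342 CPM in RPL3L OE. The RPL3L OE cultures lay above all others. The rise in RPL3L OE was 0.31 ± 0.06 (edgeR adjusted p = 0.000453), and the difference of 0.12 in RPL3 OE did not pass (adjusted p = 0.213). RPL3L OE exceeded RPL3 OE by 0.19 ± 0.05 (adjusted p = 0.0121), a call that DESeq2 did not make and that was lost without replicate 2 of either group. Its RNA was 384 to 397, 388 to 396 and 366 to 393 CPM.

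Eif3j1, the loosely bound eIF3 subunit (chr2:122028546-122056598), was at 199, 199 and 190 CPM in control Ribo-seq, 247, 226 and 255 CPM in RPL3 OE and 240, 272 and 243 CPM in RPL3L OE. It rose in both, by 0.30 ± 0.07 (edgeR adjusted p = 0.00199) and 0.36 ± 0.06 (adjusted p = 0.000215). Its RNA was 214 to 243 CPM in control and 222 to 238 CPM in the 6 overexpressing cultures, within the control range.

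These 3 genes were the members with a TE call in RPL3L OE. TE rose by 0.40 ± 0.10 for Eif1a (edgeR adjusted p = 0.0155), by 0.32 ± 0.07 for Eif1ax (adjusted p = 0.00674) and by 0.33 ± 0.08 for Eif3j1 (adjusted p = 0.0233). In RPL3 OE the TE differences were 0.32 ± 0.10 (adjusted p = 0.331), 0.10 ± 0.07 (adjusted p = 0.741) and 0.23 ± 0.08 (adjusted p = 0.452). The differences in TE between RPL3L OE and RPL3 OE, 0.08 ± 0.09, 0.22 ± 0.07 and 0.10 ± 0.08, did not pass. The calls rest on single cultures: without RPL3L OE replicate 3 none of the 3 remained, without RPL3L OE replicate 2 or control replicate 3 Eif1a and Eif3j1 were lost, and without control replicate 2 Eif3j1 was lost.

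**Figure D3:**
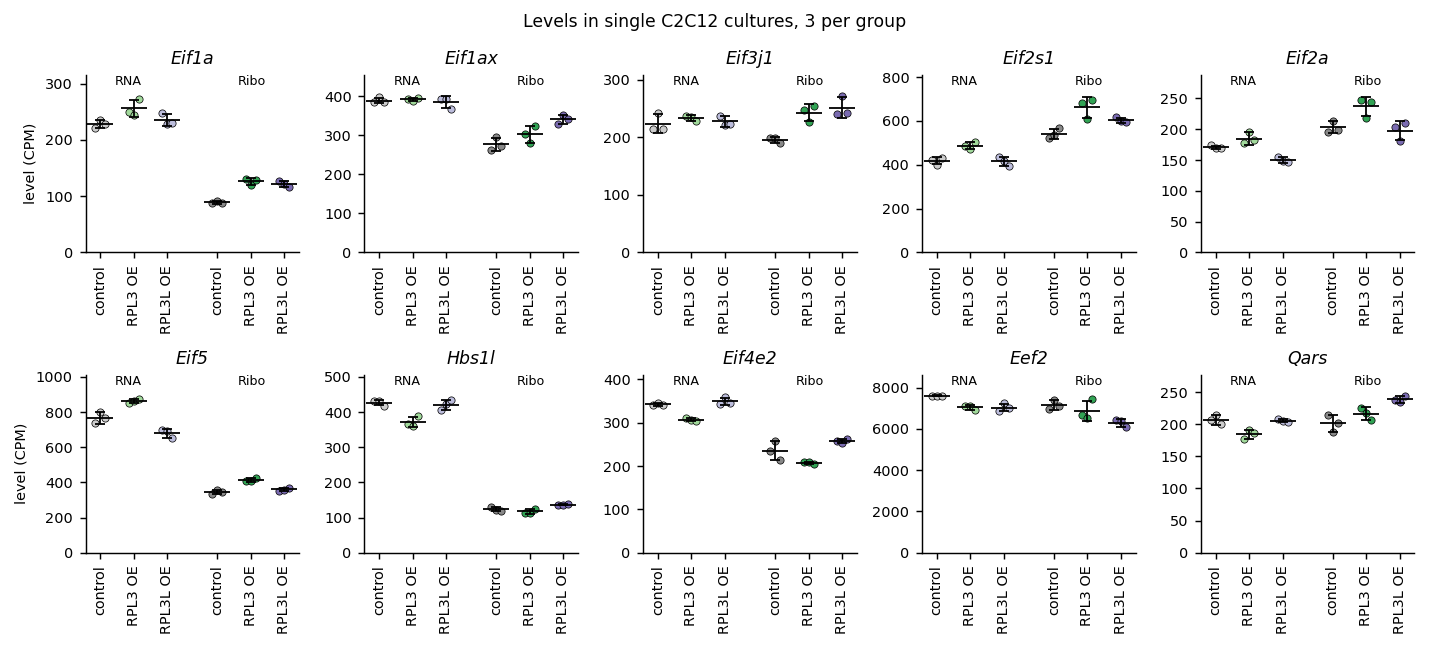
Levels of 10 members in single C2C12 cultures (y axis, CPM, starting at 0) for control, RPL3 OE and RPL3L OE in RNA-seq (left of each panel) and Ribo-seq (right). Points are cultures, and marks with bars are the mean and SD of 3 cultures. For Eif1a, Eif1ax and Eif3j1 the RPL3L OE cultures stand above control in Ribo-seq while their RNA stands near or within the control range.

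Other initiation factors moved in one overexpression or moved apart. Eif2s1, the eIF2 subunit that the stress kinases phosphorylate, had RNA at 401 to 432 CPM in control, 470 to 502 CPM in RPL3 OE and 393 to 436 CPM in RPL3L OE. It rose by 0.22 ± 0.04 in RPL3 OE (edgeR adjusted p = 2.28e-05) and differed by -0.01 in RPL3L OE. In Ribo-seq it rose by 0.28 ± 0.05 in RPL3 OE (adjusted p = 0.00037), and the difference of 0.16 ± 0.05 in RPL3L OE did not pass (adjusted p = 0.0508).

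Eif5 RNA was 735, 802 and 767 CPM in control, 849, 865 and 875 CPM in RPL3 OE and 695, 694 and 651 CPM in RPL3L OE. The 3 groups did not overlap. It rose by 0.17 ± 0.04 in RPL3 OE (edgeR adjusted p = 0.000199) and fell by 0.18 ± 0.04 in RPL3L OE (adjusted p = 0.000304), and RPL3L OE lay 0.34 below RPL3 OE on the log2 scale (-0.34 ± 0.04, adjusted p = 1.88e-11). Its Ribo-seq level rose in RPL3 OE (0.25 ± 0.05, adjusted p = 0.000733) and differed by 0.06 in RPL3L OE.

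Eif2a, an initiator tRNA carrier that is distinct from eIF2, followed the same order in RNA with 169 to 174 CPM in control, 177 to 196 CPM in RPL3 OE and 147 to 155 CPM in RPL3L OE. The fall of 0.19 ± 0.05 in RPL3L OE (-0.19, edgeR adjusted p = 0.0142) was lost without RPL3L OE replicate 2 or 3, and the difference of RPL3L OE from RPL3 OE was -0.30 ± 0.06 (adjusted p = 2.63e-05). Its Ribo-seq level rose by 0.22 ± 0.07 in RPL3 OE (adjusted p = 0.0284), a call lost on leaving out any of 4 of the 9 cultures.

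Hbs1l and Eif4e2, a cap-binding protein of repressor complexes that act with ZFP598, fell in RNA of RPL3 OE and passed in no other comparison with control. Hbs1l RNA was 418 to 432 CPM in control, 360 to 388 CPM in RPL3 OE and 406 to 434 CPM in RPL3L OE (RPL3 OE -0.20 ± 0.04, edgeR adjusted p = 0.000119). Eif4e2 RNA was 340 to 346, 303 to 311 and 343 to 359 CPM (RPL3 OE -0.16 ± 0.04, adjusted p = 0.00252). Both were higher in RPL3L OE than in RPL3 OE in RNA (0.18 and 0.19) and in Ribo-seq, where Hbs1l was higher by 0.24 ± 0.07 (adjusted p = 0.0121, lost without RPL3 OE replicate 1 or 2) and Eif4e2 by 0.31 ± 0.06 (adjusted p = 0.000101). Zfp598 passed in no C2C12 comparison, with RNA at 259 to 284 CPM across the 9 cultures.

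Eef2 RNA was 7571 to 7609 CPM in control, 6918 to 7117 CPM in RPL3 OE and 6880 to 7228 CPM in RPL3L OE. It fell by 0.11 ± 0.03 on the log2 scale in each (-0.11, edgeR adjusted p = 0.00482 and 0.00719), and these calls were lost without RPL3 OE replicate 3 and without RPL3L OE replicate 1. The Ribo-seq fall in RPL3L OE (-0.19 ± 0.06, adjusted p = 0.0297) was lost on leaving out any of 5 of the 9 cultures. Eef1g, Eef1b2 and Eef2k passed in neither comparison with control.

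Of the synthetases, Qars, which charges glutamine tRNA, was the 1 member with a call against control. Its RNA fell in RPL3 OE (200 to 215 CPM in control, 177 to 191 CPM in RPL3 OE, -0.16 ± 0.05, edgeR adjusted p = 0.019), a call lost on leaving out any of 3 of the 9 cultures. Its Ribo-seq level rose in RPL3L OE (188 to 214 and 234 to 244 CPM, 0.24 ± 0.06, adjusted p = 0.007), a call lost without control replicate 2. Between RPL3L OE and RPL3 OE, RNA of the mitochondrial synthetases Wars2 (-0.62 ± 0.21) and Fars2 (-0.37 ± 0.12) was lower in RPL3L OE, on levels of 7.45 to 17.5 and 30.2 to 46.7 CPM. The Wars2 call was lost on leaving out any of 2 cultures and the Fars2 call on leaving out any of 3. Eprs, Aars, Pars2 and Aars2 passed in none of the 9 comparisons.

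The other calls were small or uncertain. In Ribo-seq of RPL3L OE, Eif2b3 rose by 0.19 ± 0.06 and the inhibitor Eif4ebp1 fell by 0.19 ± 0.06 (-0.19), and each was lost on leaving out any of 5 of the 9 cultures. Eif2s3y rose by 1.05 ± 0.23 (edgeR adjusted p = 0.00265) on 8.73 to 11.9 CPM in control and 18.6 to 25.5 CPM in RPL3L OE. Its RNA-seq count was at most 2 in each culture, and it shares reads with the near-identical Eif2s3x. Eif3l RNA fell by 0.11 ± 0.03 in RPL3 OE (-0.11, adjusted p = 0.0162) and was lost on leaving out any of 4 of the 9 cultures. The remaining calls between the overexpressions were, in RNA, Eif2ak4 (-0.24), Eif2s1 (-0.23), Eif1b (-0.22), Eif4ebp1 (-0.17), Eif2b2 (-0.15), Eef1g (-0.12), Iars (-0.12), Eif3b (-0.09), Eif3l (0.12), Eif4b (0.12), Qars (0.15), Hbs1l (0.18) and Eif4e2 (0.19). In Ribo-seq they were Eef2k (-0.28), Eif2a (-0.25), Eif2b2 (-0.20), Eif5 (-0.20), Eif4g1 (-0.14) and Eif4enif1 (0.22). Of these, Iars, Eef2k and Eif4g1 were lost on leaving out any of 8, 7 and 6 cultures.

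From the wider lists, Dhps, the enzyme that begins hypusination of eIF5A, fell in RPL3L OE in RNA (-0.31 ± 0.05, edgeR adjusted p = 1.44e-06) and in Ribo-seq (-0.28 ± 0.06, adjusted p = 0.00088). Dohh, the enzyme of its next step, fell in Ribo-seq of RPL3L OE (-0.18 ± 0.06) and RPL3 OE (-0.25 ± 0.06). Map3k20, a kinase that senses collided ribosomes, rose in Ribo-seq of both (0.24 ± 0.06 and 0.35 ± 0.06). Each overexpression had 3 of the 13 stalling and rescue partners called in Ribo-seq, where 12.5% of all genes were called in RPL3L OE and 11.9% in RPL3 OE. Atf4 RNA rose in RPL3L OE (0.18 ± 0.03), the 1 called there of the 6 stress response targets tested, where 9.85% of all genes were. Mrrf, the mitochondrial ribosome recycling factor, rose in Ribo-seq of RPL3L OE by 0.73 ± 0.12 and in TE by 0.66 ± 0.16. Cell state markers moved with the groups. Of 7 listed myoblast genes, 3 had a line (Myod1, Cdh15, Des). Their RNA summed to 1087 to 1117 CPM in control, 711 to 782 CPM in RPL3 OE and 1262 to 1297 CPM in RPL3L OE. This sum is not particular to myoblasts: it was 3647 to 4491 CPM in heart RNA, where Myod1 and Cdh15 were at 0. In control, RPL3 OE and RPL3L OE, 7 fibroblast genes summed to 3918 to 4104, 5912 to 5987 and 4319 to 4404 CPM. Differentiated muscle genes (Myog, Myh3, Ckm, Tnni2, Mylpf) summed to 68.2 to 75.1, 53.1 to 54 and 77.8 to 81.1 CPM. Cnn1 of smooth muscle was at 4.82 to 11.2, 15.6 to 30.8 and 11.4 to 18.2 CPM. The part of these markers in the results above was not tested.

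The last comparison asked where the members are expressed: 4 Rpl3l+/+ hearts against 3 control C2C12 cultures. Tissue, sex, culture and library batch cannot be told apart in it, and most genes differed. In RNA 45 of 57 members passed, 22 higher and 23 lower in heart, against 82.6% of all 6369 genes (40.4% higher and 42.1% lower). In Ribo-seq 52 of 56 passed, 22 higher and 30 lower, against 83.7% of all 5939 genes (41.5% higher and 42.1% lower). In TE 26 of 56 passed, 8 higher and 18 lower, against 48.4% of all 5801 genes (22.6% higher and 25.8% lower). Scaling by library totals in place of TMM moved the median of all genes in RNA from -0.06 to -0.64. The split depended on it: 11 members were then higher and 34 lower in RNA, 15 higher and 33 lower in Ribo-seq, and 16 higher and 12 lower in TE. Shares of all genes called with library totals are not given here. Counts with library totals, here and by role or list below, therefore have no background beside them.

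Mitochondrial synthetases were higher in heart. In RNA 10 of 11 rose with a median log2 difference of 0.89, where 40.4% of all genes were called higher. In Ribo-seq 10 of 11 rose with a median of 1.18, where 41.5% of all genes were called higher. With library totals 4 remained called in RNA and 8 in Ribo-seq, none lower, and Rars2 RNA turned from 0.58 to -0.01. Wars2 did not pass (-0.15 and -0.07). Fars2, the mitochondrial phenylalanyl-tRNA synthetase (chr13:36129900-36537593), was at 266, 284, 223 and 249 CPM in heart RNA and 28.8, 30 and 31.2 CPM in C2C12 RNA. Its Ribo-seq level was 163 to 210 CPM and 28.5 to 36.3 CPM. These are rises of 3.09 ± 0.12 (edgeR adjusted p = 2.82e-11) and 2.60 ± 0.12 (adjusted p = 4.55e-11). Lars2, for leucine, rose by 1.89 ± 0.13 in RNA and 2.20 ± 0.10 in Ribo-seq, and Aars2 by 1.53 ± 0.15 and 1.25 ± 0.11. With TMM, the mitochondrial translation factors on their own list were also higher, 9 of 9 in RNA and 8 of 9 in Ribo-seq, against the same shares of all genes. Among them was the elongation factor Tufm (2.35 ± 0.10 in RNA). Values of this list with library totals are not given here.

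Cytosolic synthetases had 2 members higher and 4 lower of 7 in each assay with TMM, and none higher and 5 lower in each assay with library totals. With TMM, 40.4% of all genes were higher and 42.1% lower in RNA, and 41.5% and 42.1% in Ribo-seq. Vars (chr17:35000987-35016322) was at 126, 168, 143 and 150 CPM in heart RNA and 470, 452 and 476 CPM in C2C12 RNA. In Ribo-seq it was at 114 to 168 CPM and 741 to 791 CPM. It was lower in heart by -1.66 ± 0.11 in RNA and -2.42 ± 0.11 in Ribo-seq. Gars (-1.11 and -1.42) and Yars, for tyrosine (-0.84 and -1.06), were lower in both assays under either scaling. Aars was -0.11 in RNA, which did not pass, and lower in Ribo-seq (-0.46), and Iars was lower in RNA (-0.49) and at 0.01 in Ribo-seq, where it did not pass. With library totals they were -0.70 and -0.83 for Aars and -1.07 and -0.35 for Iars, all past the threshold. Eprs (0.37 and 0.42) and Qars (0.53 and 0.32) were higher with TMM only. With library totals none of these calls remained, at -0.22 and 0.06 for Eprs and -0.05 in both assays for Qars.

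**Figure D4:**
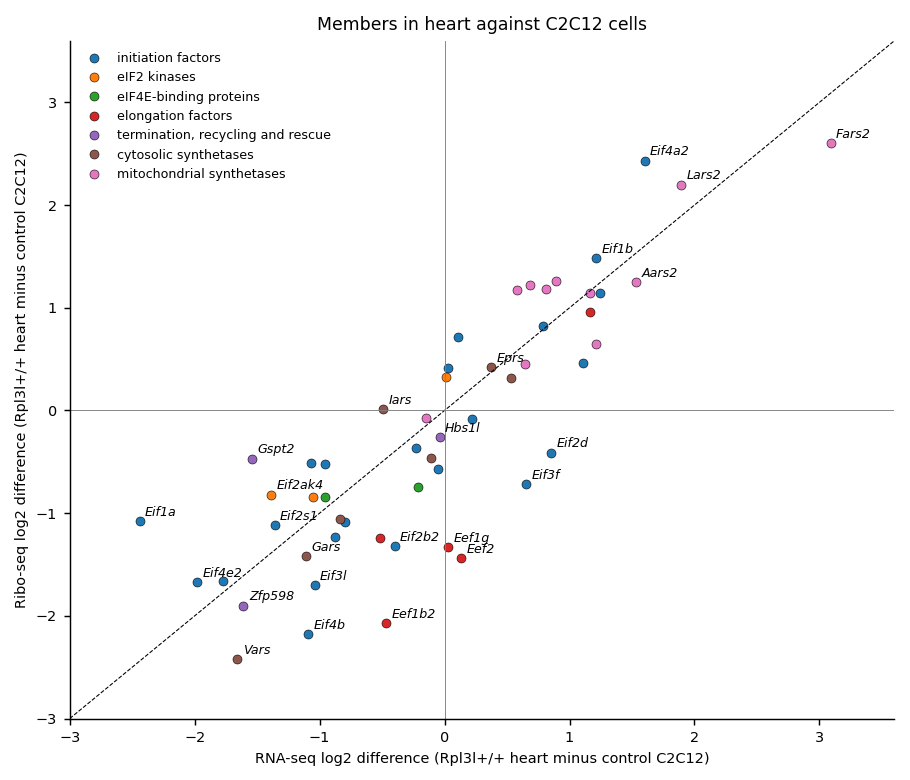
Log2 difference of members between Rpl3l+/+ hearts and control C2C12 cells in RNA-seq (x axis) and Ribo-seq (y axis), coloured by role. The dashed line marks equal differences. Eif2s3y and Eif5a2, which had at most 3 counts in every RNA library of one side, are not drawn. Fars2 lies at 3.09 and 2.60 and Vars at -1.66 and -2.42, and Eif4b and Eef1b2 lie below the line.

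Per length, Eef2 and Eif1 were the most abundant members in heart RNA, with means of 2132 and 2104 CPM per kb of transcript whose ranges overlapped (1610 to 2379 and 1902 to 2341). They were followed by Eef1g (898) and Eef1b2 (548). In control C2C12 RNA the order was Eef2 (1954), then Eif1 (893) and Eef1g (880), whose ranges overlapped, then Eef1b2 (756). Per kb of coding sequence, heart Ribo-seq was led by Eif1 (1651, range 1361 to 2129), Eif4a2 (938) and Eef2 (868), and the ranges of Eif4a2 and Eef2 overlapped. C2C12 Ribo-seq was led by Eef2 (2362), Eef1b2 (1458) and Eef1g (1059).

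A further list held factors taken to have mRNAs with a 5' terminal oligopyrimidine (TOP) tract. Such a tract is a run of C and U at the cap that places translation under mTORC1 and LARP1. The listed factors gave TE differences of the same sign under both scalings. All 7 listed members tested passed in TE, where 48.4% of all genes did. Of these members 6 were lower in heart and 1 higher, where 25.8% and 22.6% of all genes were. Their median was -1.39 against -0.05 for all genes tested. With library totals it was again 6 lower and 1 higher. The first bases of 6 of them are shown because a TOP tract is defined by its place at the cap. Each line gives 10 bases before and 20 from the RefSeq start on GRCm38.p6, plus strand, 5′ to 3′. Capitals mark the longest run of at least 6 C or T.
Eef2 (chr10:81176621-81176650): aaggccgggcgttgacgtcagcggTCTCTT
Eif3f (chr7:108934405-108934434): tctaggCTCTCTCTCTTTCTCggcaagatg
Eif3l (chr15:79075213-79075242): gagTTCTTCTTCCgctctctcccacgggct
Eif4b (chr15:102073763-102073792): tcccgtcggacgccgcgccaCCCCCTCgcg
Eef1b2 (chr1:63176821-63176850): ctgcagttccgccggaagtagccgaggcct
Eif4a2 (chr16:23107458-23107487): gaaaccccgtaggagcagggcggccgagga

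A run anywhere in the window was found on the strand of the gene in 4 of these 6, in 18 of the 48 members with an entry off chromosome 18 (37.5%) and in 9417 of all 32851 start windows of the same length (28.7%). The units differ: a member counts if any of its starts has a run, and some members have several starts. The last share is of single windows. Counting from 1 at the annotated start and from -1 upstream of it, the runs of Eif3f and Eif3l begin at positions -4 and -7 and cover the start, as do those in 7.25% of all windows. The runs of Eef2 and Eif4b begin at positions 15 and 11, inside the transcript. Annotated starts can differ from the start used in these tissues, so a window without a run says only that these letters are not in it. Eef1g belongs to the same list.

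Eef2 RNA was 4974, 7350, 6803 and 7220 CPM in heart and 6027, 5911 and 6165 CPM in C2C12 cells (0.13 ± 0.13, edgeR adjusted p = 0.367). With library totals the RNA was lower in heart (-0.46, adjusted p = 0.00364). Its Ribo-seq level was 3529, 2106, 1648 and 1658 CPM in heart and 5983, 6264 and 5994 CPM in C2C12 cells (-1.44 ± 0.20, adjusted p = 8.55e-06). Every heart lay below every culture in Ribo-seq, while the TMM-scaled RNA overlapped. The TE difference was -1.60 ± 0.27 (adjusted p = 9.15e-05).

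Eef1b2 had RNA at 857 to 1203 CPM in heart and 1408 to 1499 CPM in C2C12 cells, Ribo-seq at 169 to 352 and 941 to 1022 CPM, and a TE difference of -1.63 ± 0.24 (edgeR adjusted p = 1.87e-05). Eif3f, an eIF3 subunit, had more RNA in heart (688 to 910 against 503 to 536 CPM) and less Ribo-seq signal (273 to 502 against 581 to 608 CPM). Its differences were 0.65 in RNA, -0.72 in Ribo-seq and -1.40 ± 0.20 in TE (adjusted p = 1.80e-05), and the RNA difference was 0.06 with library totals. Eef1g (-1.39 ± 0.22), Eif4b, a cofactor of the eIF4A helicase (-1.12 ± 0.16), and Eif3l (-0.69 ± 0.13) were also lower in TE.

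Eif4a2 was the listed member that rose. Its RNA was 914, 716, 747 and 693 CPM in heart and 255, 251 and 251 CPM in C2C12 cells, and its Ribo-seq level was 1043 to 1259 CPM and 209 to 218 CPM. It rose by 1.60 ± 0.11 in RNA, 2.43 ± 0.09 in Ribo-seq and 0.80 ± 0.14 in TE (edgeR adjusted p = 9.21e-05).

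**Figure D5:**
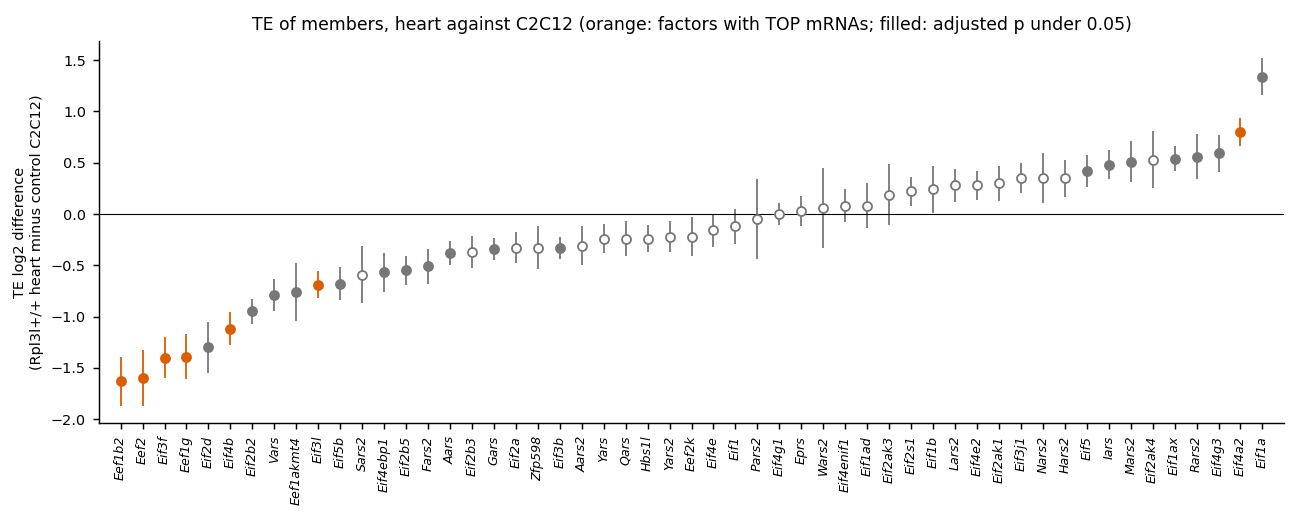
TE difference of each member tested, Rpl3l+/+ heart minus control C2C12 (y axis, log2), sorted by value. Bars are the standard error, orange marks the factors listed with TOP mRNAs and filled points have an adjusted p under 0.05. Orange points hold 6 of the lower values, from Eef1b2 at -1.63 to Eif3l at -0.69, and 1 higher value, Eif4a2 at 0.80. Eif2s3y, Eif5a2 and Gspt2, with few RNA counts, are not drawn.

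Other initiation factors with large differences fell on both sides. Eif1a RNA was 30 to 40.7 CPM in heart and 175 to 186 CPM in C2C12 cells, and its Ribo-seq level was 29.5 to 45.8 and 74.2 to 77.7 CPM. It was lower by -2.44 ± 0.12 and -1.08 ± 0.14, with a TE difference of 1.34 ± 0.18 (edgeR adjusted p = 9.14e-06). Eif1ax was lower by -1.07 and -0.51 with a TE difference of 0.54 ± 0.12. Eif1 and Eif1b were higher in both assays, Eif1 by 1.24 and 1.14 and Eif1b by 1.21 and 1.48. Eif2d, which can deliver the initiator tRNA without eIF2, had an RNA difference of 0.85 and a Ribo-seq difference of -0.41 that did not pass, with a TE difference of -1.30 ± 0.25 (adjusted p = 0.000289). With library totals Eif2d was at 0.27 in RNA, no longer called, and called lower in Ribo-seq (-0.78). Eif2b2, of the exchange factor of eIF2, was lower by -0.40 and -1.32 with -0.95 ± 0.12 in TE, and Eif5b was higher by 1.11 and 0.46 with -0.68 ± 0.16 in TE. The Ribo-seq call of Eif5b was lost with library totals (0.09).

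Cap-binding factors differed among paralogs. Eif4g1 was higher in heart by 0.79 ± 0.09 in RNA and 0.82 ± 0.07 in Ribo-seq, and Eif4g3 by 0.72 ± 0.11 in Ribo-seq with an RNA difference of 0.11 that did not pass. With library totals Eif4g3 RNA was lower in heart (-0.47, edgeR adjusted p = 0.0115). Eif4e2 was lower by -1.98 ± 0.10 and -1.67 ± 0.10, while Eif4e was lower in Ribo-seq (-0.37) with an RNA difference of -0.23 that did not pass. Eif4ebp1 had an RNA difference of -0.21 that did not pass and was lower in Ribo-seq (-0.75 ± 0.10). With library totals the RNA of Eif4e (-0.82) and of Eif4ebp1 (-0.80) was called lower. Eif4ebp3 RNA was higher by 0.86 ± 0.26 and no longer called with library totals (0.27). The kinases Eif2ak3 (-1.05 and -0.84) and Eif2ak4 (-1.39 and -0.82) were lower in both assays, and Eif2ak1, at 0.01 in RNA, was higher in Ribo-seq (0.33). With library totals Eif2ak1 changed sign, to -0.57 in RNA, which passed, and to -0.04 in Ribo-seq, which did not. Eef2k was higher (1.16 ± 0.13 and 0.96 ± 0.13), Zfp598 was lower (-1.61 ± 0.12 and -1.90 ± 0.16), and Hbs1l differed by -0.04 in RNA and was lower in Ribo-seq (-0.26). With library totals Hbs1l RNA was also called lower (-0.62).

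A few members were near the limit of detection. Eif4e1b had at most 2 counts in every library compared. Eif5a2 RNA had at most 3 counts in each heart and was at least 3.56-fold higher in C2C12 cells, against a floor of 3 counts per library. Eif2s3y, which lies on the Y chromosome, had at most 2 RNA counts in each control culture and was at least 562-fold higher in heart RNA, at 142 to 199 CPM. The hearts were male, and C2C12 derives from a female mouse according to the study. Gspt2 RNA stood at 0.423 to 4.24 CPM in heart and 4.32 to 4.78 CPM in C2C12 cells.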

How the data were processed

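Ribo-seq and RNA-seq reads were processed by the authors with cutadapt, STAR and featureCounts, with mm10 and the GRCm38.p6 transcriptome as builds (per the labels), rRNA reads removed, UMIs collapsed and multi-mapped reads allowed, and they deposited raw read counts per transcript for each library. How RNA-seq reads were handled apart from Ribo-seq reads is not given in the sources used here, and reads shared by near-identical genes may be split. The table has 47754 lines for 23877 transcripts, each present as identical lines, of which 1 was kept. In the table, 16 columns of per-sample values are of samples not analysed here. GENCODE M21 gave symbols for 23662 transcripts.

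For each gene, the transcript with the highest summed CPM over the 34 libraries was taken. Genes with a mean count of at least 10 entered edgeR 4.0.16 quasi-likelihood fits (R 4.3.3) over the whole table, with TMM scaling within each assay, two-sided tests and Benjamini-Hochberg adjustment over all genes tested. The TE test compared the Ribo-seq difference with the RNA-seq difference in 1 model. C2C12 fits held all 3 groups. Standard errors are those of the log2 difference, and counts limit the precision of low genes. Every pair of replicates differed by more than sampling noise (chi-square per degree of freedom at least 1.37). Scripts were tested on simulated data. Alternatives were DESeq2 1.42.0, library totals, other count minimums, all transcripts in the fit, another choice of transcript, a replicate block, leaving out each library, and, chosen after seeing the data, leaving out the Rpl3l-/- libraries with the most airway RNA. Tables and plots used Python 3.11.15 (pandas 2.3.3, NumPy 2.4.6, SciPy 1.17.1, matplotlib 3.10.9).

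Members and lists were chosen with earlier results of these data known. Named were all members past an adjusted p of 0.05 in a comparison, or the 25 with the smallest p, the 2 with the smallest p in each heart comparison, the paralog sets of eIF4A, eIF4G, eIF4E, its binding proteins, eIF5A, the eIF2 kinases and GSPT, the synthetases for proline and alanine and the rescue factors. Others were chosen after their values were seen.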

Additional observations from a re-analysis of the deposited data

Results flagged for a closer look

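Single hearts that stood apart from the other 3 of their group were sought among 22 named members in 80 groups of 4 hearts, with the gap to the nearest heart divided by the group's range, against Dixon's 95% limit. Chance marks about 1 in 20 such groups, and 3 were found. Eif1 RNA was 2824 CPM in Rpl3l-/- replicate 2 against 2145 to 2215 CPM in the other Rpl3l-/- hearts (ratio 0.898). Eif4g1 Ribo-seq was 892 CPM in Rpl3l-/- replicate 1 against 707 to 712 CPM (ratio 0.97). Eif4g3 Ribo-seq was 107 CPM in Rpl3l+/+ replicate 2 against 82.2 to 86.4 CPM (ratio 0.83).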

How the results depend on the processing

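No sign change of a called value was found among the named members run through all alternatives, of which the heart against C2C12 comparisons held the 25 with the smallest p each. The other members of those comparisons were rescaled only, with the sign changes given above. Of 243 counts of members called under alternatives, 230 stayed within 1.5 times the original. DESeq2 gave 1 in heart Ribo-seq (originally 0), 5 in Ribo-seq of RPL3L OE (originally 8) and 3 in Ribo-seq of RPL3L OE against RPL3 OE (originally 9). Library totals gave 13 in Ribo-seq of RPL3L OE and 7 in TE of RPL3L OE (originally 3). Leaving out single cultures gave 4 to 9 calls in RNA of RPL3 OE (originally 8, lowest without RPL3 OE replicate 3), 11 to 18 in RNA of RPL3L OE against RPL3 OE (originally 17, lowest without RPL3 OE replicate 3), 4 to 10 in Ribo-seq of RPL3L OE (lowest without control replicate 2, and 5 without RPL3L OE replicate 1 or 2) and 0 to 4 in TE of RPL3L OE (0 without RPL3L OE replicate 3, 1 without RPL3L OE replicate 2 or control replicate 3). In heart against C2C12, TE calls numbered 18 without any 1 control culture (originally 26). The cause of these moves was not tested.

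Replicate numbers matched between assays for some hearts only. RNA-seq and Ribo-seq deviations of the same number correlated at 0.23 to 0.36 in Rpl3l+/+ hearts (with another number at most 0.16) and at 0.58 and 0.46 for Rpl3l-/- replicates 1 and 4, but at -0.56 and -0.63 for Rpl3l-/- replicates 2 and 3, each of which correlated at 0.66 with another number. In C2C12 cultures they were at -0.02 to 0.08. TE was therefore fitted without pairing, and the block below uses the numbers as labelled. With a replicate block, members called numbered 0 in each heart comparison, 3, 8 and 14 in C2C12 RNA (RPL3L OE, RPL3 OE and between them), 8, 6 and 11 in Ribo-seq, 4, 0 and 0 in TE, and 40, 52 and 28 for heart against C2C12 in RNA, Ribo-seq and TE. Totals were lowest in heart Ribo-seq, with 1606700 to 3192090 counts per library.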

Other observations

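The Ribo-seq levels of factors listed with TOP mRNAs varied from heart to heart within each genotype. This was noticed after the values were seen. Eef2, Eef1g, Eif3f, Eif3l and Eif4b had their 3 highest values in the same 3 Ribo-seq libraries, Rpl3l+/+ replicate 1 and Rpl3l-/- replicates 2 and 3. Eef1g, for example, was at 705, 452, 405 and 369 CPM in Rpl3l+/+ hearts and 339, 569, 606 and 410 CPM in Rpl3l-/- hearts, and Eif3f at 444, 321, 241 and 269 CPM and 265, 440, 452 and 287 CPM. Eef1b2 was highest in Rpl3l+/+ replicate 1 (311 CPM) and Rpl3l-/- replicate 3 (224 CPM), but Rpl3l-/- replicate 2 (179 CPM) lay below Rpl3l+/+ replicate 2 (201 CPM). Eif4a2, the other listed member, did not share the order. It was at 1113, 962, 1053 and 923 CPM in Rpl3l+/+ hearts and 716, 861, 1021 and 675 CPM in Rpl3l-/- hearts. RNA did not share the order: Eef2 RNA was lowest in Rpl3l+/+ replicate 1 (4151 CPM). Nor did the airway sums, at 1.35, 307 and 0 CPM in those 3 Ribo-seq libraries. No test was made.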
